A study of Mus musculus with 3 samples.

Results

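This account covers 7 genes of the S100 family in single cells of the mouse cochlea: S100a8, S100a9, S100a4, S100a6, S100a10, S100a11 and S100b. They are 7 of the 32285 genes counted, were chosen by name, and were read as raw counts of unique molecular identifiers (UMIs, 1 per captured RNA molecule). Cochleae came from C57BL/6J mice, and each group gave 1 single-cell 3′ library pooled from 6 mice. The HHL group (hidden hearing loss) had noise of 110 dB for 2 h, the NIHL group (noise-induced hearing loss) had 115 dB for 4 h, for 3 days, and the control group had none. Cochleae of the exposed mice were removed 6 h after their last noise. All cells stand in 1 table, and the barcode suffixes 1, 2 and 3 match no group label. The suffixes are therefore called library 1, 2 and 3, and no comparison of NIHL, HHL and control was made.

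S100 proteins are small calcium-binding proteins with a pair of EF-hand loops, and most work as dimers. S100A8 and S100A9 form calprotectin, which neutrophils hold in their cytosol in very large amounts and release at sites of injury, where it binds metal ions and signals through TLR4 and RAGE (the product of Ager). S100A4, S100A6, S100A10 and S100A11 act mainly inside cells on annexins, the cytoskeleton and membranes, and S100B is best known from glia and from pigment cells of the neural crest. In the cochlea, fibrocytes of the spiral ligament and Schwann cells also carry S100 proteins.

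The filters (at least 500 UMIs, at least 200 genes, at most 20% mitochondrial UMIs) kept 16883, 9602 and 10703 cells of libraries 1, 2 and 3, with a median of 5464, 6294 and 8098 UMIs per cell. Throughout, 3 values in a row belong to libraries 1, 2 and 3 in that order. Cells were placed in classes by lists of lineage markers that hold no S100 gene; 14.3, 21.7 and 29.2% of cells passed no gate and 2.51, 2.48 and 2.39% passed the gates of several classes and were left out. Of 29 lists, 23 classes (28584 cells) had at least 50 cells and are described, and 20 of these had at least 20 cells in every library. Of 37188 kept barcodes, 128 sequences occurred in more than 1 library. Levels are UMIs of a gene scaled to a class total of 1000000 UMIs (CPM), with an exact Poisson 95% interval. Intervals cover counting error only: each library is 1 pool, so differences between libraries have no replicate check and no test was made. Most cells were blood-forming or immune, and sensory cells were few, so the cochlear classes below rest on at most 289 cells in a library.

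**Figure D1:**
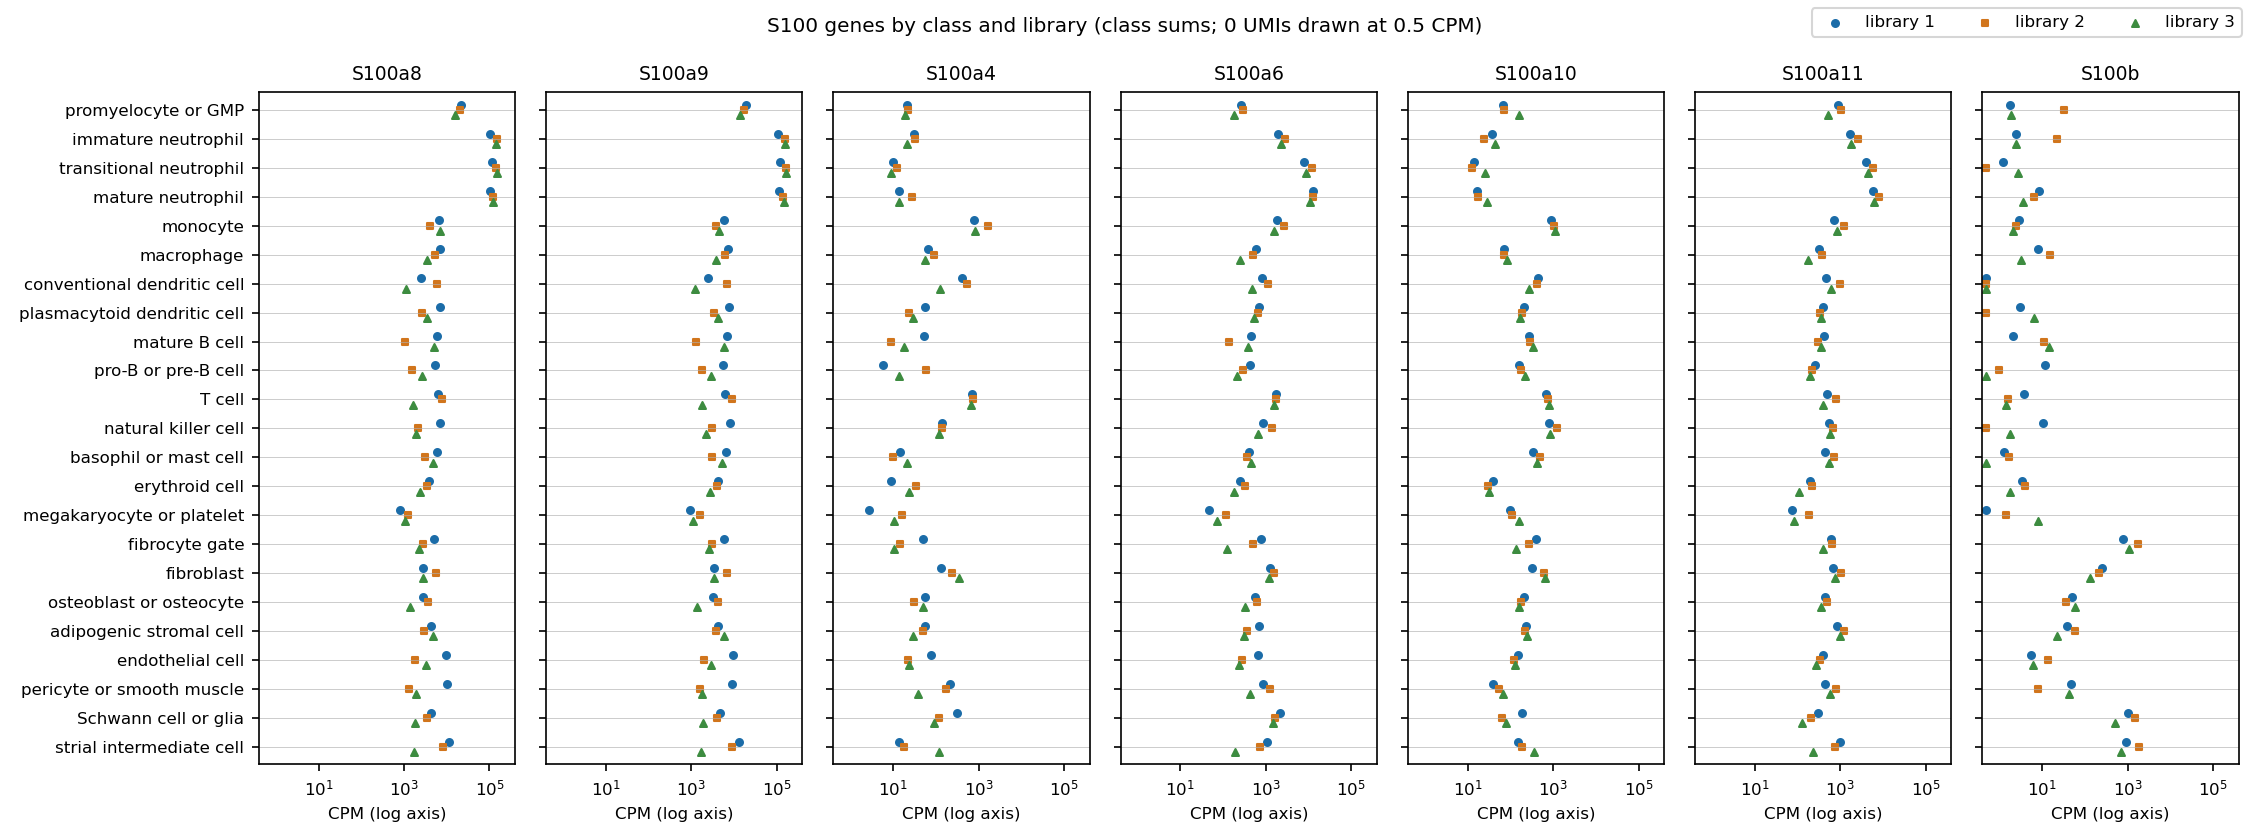
Level of each S100 gene (CPM of the class sum, log axis) in the 23 classes, with 1 symbol per library and classes without a UMI drawn at 0.5 CPM. S100a8, S100a9, S100a6 and S100a11 peak in neutrophils, and S100a4 and S100a10 are low there and high in monocytes, with natural killer cells overlapping for S100a10. S100b is above 100 CPM only in the fibrocyte gate (fibrocytes or strial basal cells), glia, strial intermediate cells and fibroblasts.

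S100a8 and S100a9, the calprotectin subunits, were at their highest in neutrophils. In mature neutrophils (markers such as Cxcr2, Csf3r and Retnlg; 2583, 1944 and 1264 cells) S100a8 stood at 102487, 121142 and 124044 CPM and S100a9 at 112410.5, 139445 and 147883 CPM. The pair made up 21.5, 26.1 and 27.2% of all UMIs of these cells, 23.6, 30.8 and 31.3% in transitional neutrophils, which passed both neutrophil gates, and 21.2, 29.8 and 29.3% in immature neutrophils (markers such as Ltf, Camp and Ngp; 5066, 978 and 1106 cells). Library 1 was the lowest in all 3 neutrophil classes for both genes. The ratio of the highest to the lowest library was nonetheless small, 1.21 for S100a8 and 1.32 for S100a9 in mature neutrophils and 1.39 and 1.44 in immature ones. Genes with a ratio of at least 2 made up 27.4% of all genes tested in mature and 24.5% in immature neutrophils.

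Promyelocytes and granulocyte-monocyte progenitors (markers such as Elane, Mpo and Prtn3; 1274, 349 and 677 cells), which come before neutrophils in the lineage, were much lower. They held 21345 (21279 to 21411), 20952 (20830.4 to 21074) and 15912 (15848 to 15977) CPM of S100a8 and 19019 (18957 to 19082), 17175 (17065 to 17286) and 13858 (13797 to 13918) CPM of S100a9. Single cells of this class were spread widely, with the pair at 0.467, 0.287 and 0.267% of UMIs in the lower quartile and 7.43, 6.41 and 3.92% in the upper quartile. Immature neutrophils were far more even, at 18.4, 26.1 and 26% and 24.8, 35.1 and 34.3%. Immature neutrophils exceeded promyelocytes 4.92, 6.99 and 8.69 times for S100a8 and 5.64, 8.86 and 11.1 times for S100a9. Of all genes tested, 6.73% were at least 2 times higher in each library at this step. The later stages stayed within 2-fold: mature over immature neutrophils gave 0.976, 0.828 and 0.897 for S100a8 and 1.05, 0.917 and 0.958 for S100a9. Cell by cell, the log2 levels of the 2 genes correlated with r of 0.858, 0.917 and 0.813 in mature neutrophils; cells of a library share its depth and their own UMI total, so this is a description.

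S100a6, which binds annexins and other S100 partners, was highest at a later stage than calprotectin. It stood at 259.6, 294 and 181 CPM in promyelocytes, 1899.8, 2892 and 2323 CPM in immature, 7978, 11771 and 8904 CPM in transitional and 13056, 12426 and 11098 CPM in mature neutrophils. Immature neutrophils were 7.32, 9.85 and 12.8 times above promyelocytes, where calprotectin was higher too. Transitional neutrophils were 4.2, 4.07 and 3.83 times above immature ones, a step at which 7.62% of all genes were at least 2 times higher in each library. Mature over transitional neutrophils gave 1.64, 1.06 and 1.25; no member passed 2-fold at that step, where 1.35% of all genes were higher and 1.36% lower. The median single immature neutrophil had 800.3, 1749 and 1570.0 CPM, below the class sum in each library.

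S100a11, a membrane-associated partner of annexin A1, followed the same order. Its level was 872, 1030.0 and 528 CPM in promyelocytes, 1700.3, 2649 and 1817 CPM in immature, 3918, 5779 and 4451 CPM in transitional and 5778, 7935 and 6265 CPM in mature neutrophils. Transitional over immature neutrophils gave 2.3, 2.18 and 2.45, and mature over immature 3.4, 3.0 and 3.45, where 7.24% of all genes were at least 2 times higher. Immature over promyelocytes gave 1.95, 2.57 and 3.44, which misses 2 in library 1; with S100a8 and S100a9 taken out of the totals the ratio passes 2 in every library. Because the calprotectin pair fills up to 31.3% of the UMIs of a neutrophil class, the CPM of every other gene there is lowered by that share. S100a4 was at 0.332, 0.395 and 0.435 of its immature level in transitional neutrophils, a call that 9.03% of all genes shared and that was lost with doublets removed or stricter gates. S100a4 and S100a10 were low in mature neutrophils, at 13.7, 27.6 and 14.2 CPM and 17, 18 and 28.9 CPM.

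**Figure D2:**
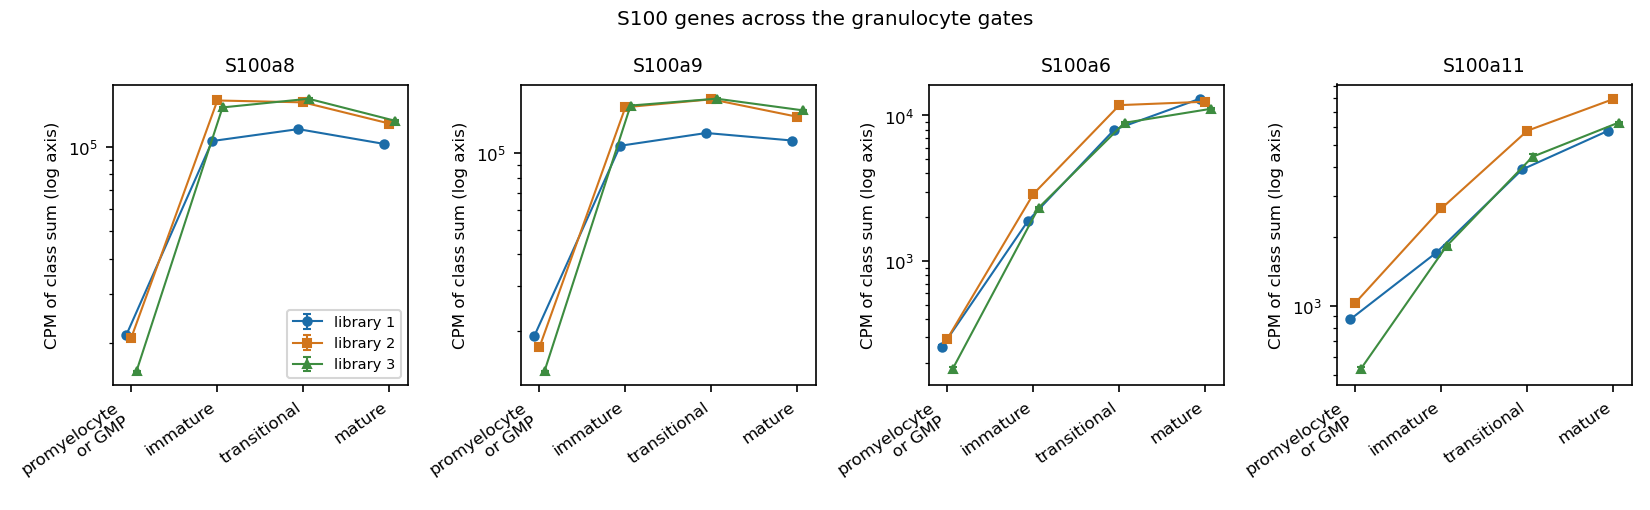
CPM of the class sum (log axes) of S100a8, S100a9, S100a6 and S100a11 in promyelocytes, immature, transitional and mature neutrophils, with exact Poisson 95% intervals, mostly smaller than the symbols. S100a8 and S100a9 reach their plateau in immature neutrophils, while S100a6 and S100a11 are higher again in transitional and mature ones in all 3 libraries.

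The promoters of these 4 genes are shown because the genes share neutrophils as their highest class yet reach it at 2 stages. Each window runs from 250 bases before to 50 bases after the transcription start, from RefSeq on GRCm38.p6, and is printed on the strand of the gene. S100a8 lies at chr3:90668821-90669120 on the plus strand, S100a9 at chr3:90695672-90695971 on the minus strand, S100a6 at chr3:90612644-90612943 and S100a11 at chr3:93520246-93520545, both on the plus strand. Capitals mark matches, on either strand, to TTGCNNAA (a C/EBP pattern), GAGGAA (a pattern of ETS factors such as PU.1) or TGANTCA (AP-1). Shorter or looser forms of these patterns were not searched.
S100a8: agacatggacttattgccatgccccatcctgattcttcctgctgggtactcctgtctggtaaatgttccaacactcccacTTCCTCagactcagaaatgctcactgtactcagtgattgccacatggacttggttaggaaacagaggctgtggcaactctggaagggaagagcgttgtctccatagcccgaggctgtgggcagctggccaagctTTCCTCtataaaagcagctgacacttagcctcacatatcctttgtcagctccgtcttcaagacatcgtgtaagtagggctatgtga
S100a9: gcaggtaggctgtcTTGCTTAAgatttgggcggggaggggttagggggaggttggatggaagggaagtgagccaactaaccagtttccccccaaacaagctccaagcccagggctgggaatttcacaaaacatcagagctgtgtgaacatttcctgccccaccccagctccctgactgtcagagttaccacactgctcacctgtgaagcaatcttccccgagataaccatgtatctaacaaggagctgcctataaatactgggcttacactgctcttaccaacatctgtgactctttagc
S100a6: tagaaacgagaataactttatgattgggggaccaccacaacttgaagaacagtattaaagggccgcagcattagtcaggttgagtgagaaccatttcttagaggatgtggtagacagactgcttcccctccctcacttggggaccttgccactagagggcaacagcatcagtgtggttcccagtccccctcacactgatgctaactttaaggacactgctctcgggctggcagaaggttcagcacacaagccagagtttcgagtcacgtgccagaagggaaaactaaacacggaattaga
S100a11: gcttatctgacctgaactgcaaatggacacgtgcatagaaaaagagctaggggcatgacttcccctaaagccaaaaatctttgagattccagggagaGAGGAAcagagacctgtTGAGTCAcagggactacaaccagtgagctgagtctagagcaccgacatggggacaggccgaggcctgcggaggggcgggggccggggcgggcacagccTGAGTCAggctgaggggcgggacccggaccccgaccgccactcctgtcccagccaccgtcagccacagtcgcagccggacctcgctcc
S100a8 holds 2 matches to GAGGAA, read as TTCCTC on the printed strand, and no match to the other patterns. S100a9 holds 1 match to TTGCNNAA. S100a11 holds 1 match to GAGGAA and 2 to TGANTCA, and S100a6 holds none of the 3. Of the 27025 promoters in the table, 10.8% hold TTGCNNAA, 28.3% GAGGAA and 7.93% TGANTCA, so single matches of this kind are common. On chromosome 3 the order of coding genes runs S100a4, S100a5, S100a6, S100a7a, S100a8, S100a9, with no other coding gene between them; S100a11 and S100a10 are neighbours further along the chromosome, and S100b lies on chromosome 10.

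Outside the granulocyte gates, UMIs of S100a8 and S100a9 were found in nearly every cell of every class. Over the 19 other classes, 92.2, 92 and 99.8% of cells in the lowest class and 100% in the highest had a UMI of S100a8. These classes include T cells, B cells, red cell precursors and stroma as well as monocytes and macrophages. Since nearly every cell of such unlike classes had a UMI, having one is not read as expression by itself. The source of these UMIs was not tested. With each cell thinned to 1000 UMIs, the share was 81.5, 65 and 82% in T cells (median depth 3969, 4388 and 5919 UMIs) and 78.3, 69.9 and 85.6% in monocytes (median depth 7768, 8871 and 16689 UMIs). The median cell of these 19 classes held between 809, 735 and 873 CPM of S100a8 in the lowest class and 1958, 1342 and 2254 CPM in the highest. The median cell of the neutrophil classes held at least 99834, 116764 and 117970.0 CPM. Monocytes, at a median of 1548, 1145 and 2071 CPM, and macrophages, at 1958, 1252 and 2027 CPM, lay within the range of lymphoid and stromal classes, except macrophages of library 1.

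The lowest library was the same in each of these classes. Among the 16 non-granulocyte classes with at least 20 cells per library, the median cell had the most S100a8 in library 3 and the least in library 2 in 16 of 16. The ratio of library 3 to library 2 ran from 1.22 to 2.19. For S100a9, library 2 was the lowest in 16 of 16, with library 3 the highest in 13 and library 1 in 3. For S100a8, as an example, the median was 1526, 940.4 and 1529 CPM in T cells and 1618, 1088 and 2070.4 CPM in B cells.

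Class sums gave another picture. The summed level of S100a8 in T cells was 6242 (6091 to 6397), 7546 (7393 to 7701) and 1608 (1542 to 1676) CPM, in mature B cells 5818 (5602 to 6040.3), 1081 (987 to 1182) and 5088 (4954 to 5224) CPM and in endothelial cells 9491 (9237 to 9750.1), 1806 (1634 to 1991) and 3216 (3079 to 3358) CPM. A minority of cells carried a large part of several of these sums, but not of all. Cells with over 5% of their UMIs from the pair were 4.08, 7.17 and 0.621% of T cells and held 70.6, 87.3 and 8.83% of the S100a8 UMIs of T cells. Such cells held 73.2, 0 and 51.5% in mature B cells and 60.4, 40.4 and 50% in endothelial cells. Without the cells over 5%, T cells were at 2048, 1081 and 1475 CPM and B cells at 1675, 1081 and 2563 CPM. Endothelial cells were then at 4471, 1099.5 and 1641 CPM. Summed, 24 of 32 pairs of gene and class outside granulocytes had a ratio of at least 2 between libraries. Over all genes and all compared classes, granulocytes included, the summed share was 27.2%. By the median cell 5 of 32 did. Without the cells over 5%, 8 of 32 did, a fall that leaving cells out by these genes' own UMIs largely fixes. No share over all genes was taken by the median cell or without the cells over 5%. These 2 counts therefore have no background beside them.

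Neutrophil markers were counted in the same cells. The 12 markers of the 2 neutrophil gates together stood at 4936, 4190.0 and 1111 CPM in T cells, 4049, 775 and 2544 CPM in B cells and 5305, 1250.3 and 2170.3 CPM in endothelial cells, against 67387, 62029.5 and 58614 CPM in mature neutrophils. All 12 had a UMI in T cells of each library; in B cells Clec4d and in endothelial cells Cebpe was at 0 in library 2. In B and endothelial cells the order of the libraries was that of S100a8; in T cells S100a8 was highest in library 2 and the markers in library 1. For each UMI of those markers there were 1.26, 1.8 and 1.45 UMIs of S100a8 in T cells and 1.52, 1.95 and 2.12 in mature neutrophils. In monocytes it was 1.57, 1.78 and 3.05. The part of free RNA and of doublets in these levels was not tested.

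**Figure D3:**
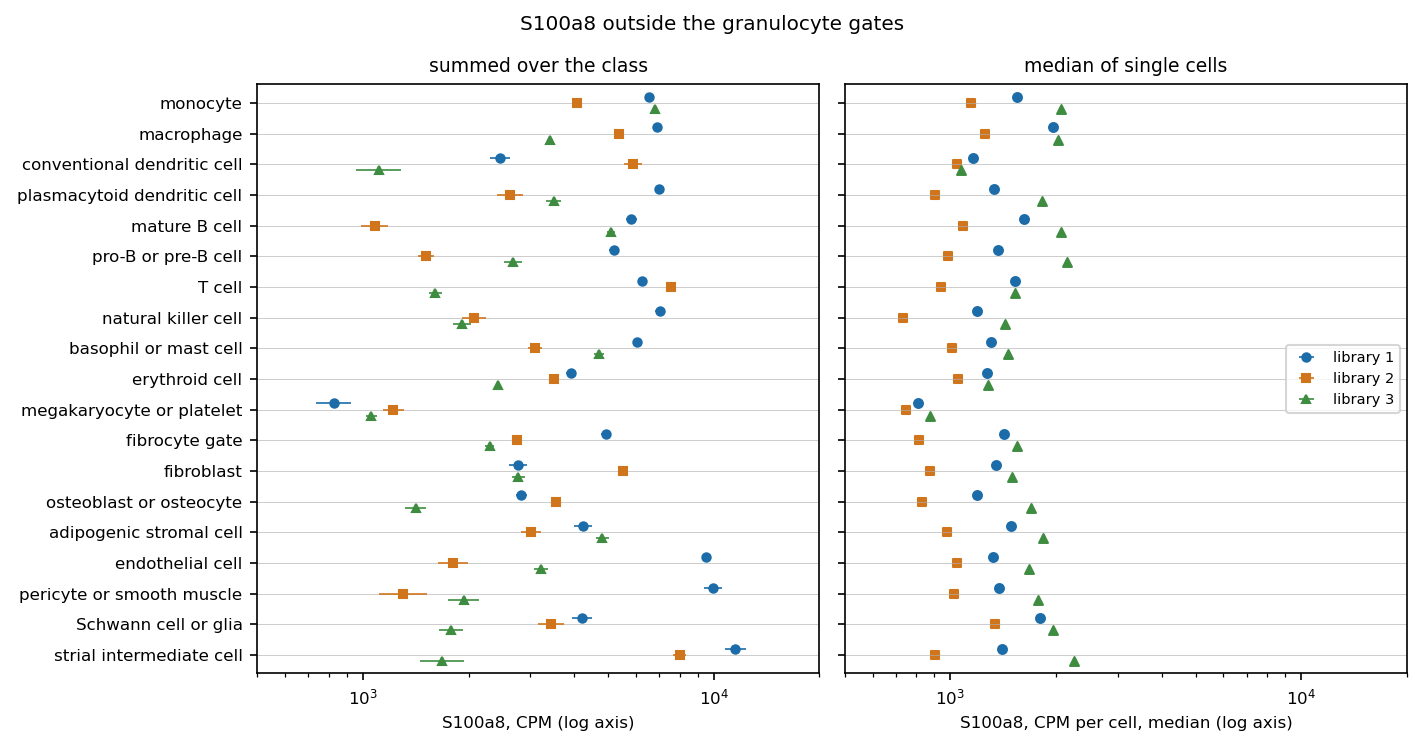
S100a8 in the 19 classes outside the granulocyte gates, as CPM of the class sum with exact Poisson 95% intervals (left) and as the median CPM of single cells (right), both on log axes. The sums scatter with no common order of libraries, while in the medians library 2 is lowest in every class and all medians lie between 735 and 2254 CPM.

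The ratio of S100a8 to S100a9 UMIs was above 1 in all 3 libraries in 2 of the 23 classes, promyelocytes and monocytes. It was 1.12 (1.12 to 1.13), 1.22 (1.21 to 1.23) and 1.15 (1.14 to 1.16) in promyelocytes, 0.979 (0.978 to 0.98), 0.962 (0.96 to 0.965) and 0.895 (0.894 to 0.897) in immature neutrophils and 0.912 (0.909 to 0.915), 0.869 (0.866 to 0.871) and 0.839 (0.836 to 0.842) in mature neutrophils, with 95% intervals in parentheses. In each library it was thus lower at each of these stages. Transitional neutrophils, at 0.962, 0.882 and 0.903, lay between immature and mature ones in libraries 1 and 2 and above immature ones in library 3. Monocytes had 1.09 (1.08 to 1.1), 1.09 (1.08 to 1.11) and 1.54 (1.53 to 1.55), and library 3 stood apart. T cells had 0.991, 0.844 and 0.917, B cells 0.836, 0.838 and 0.893, macrophages 0.932, 0.874 and 0.906 and fibroblasts 0.818, 0.802 and 0.817, all below 1. With the cells over 5% left out, the ratio was 1.46, 1.77 and 1.71 in promyelocytes and 1.33, 1.33 and 1.99 in monocytes, against 0.912, 0.835 and 0.955 in T cells and 0.848, 0.838 and 0.948 in B cells. In the upper quartile of monocytes of library 3, single cells had at least 6964 CPM of S100a8, against 3737 CPM in library 1 and 1936 CPM in library 2; the upper quartile of S100a9 was 2027, 1444 and 2165 CPM. Monocytes thus held more S100a8 per S100a9 UMI than T and B cells of the same library.

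**Figure D4:**
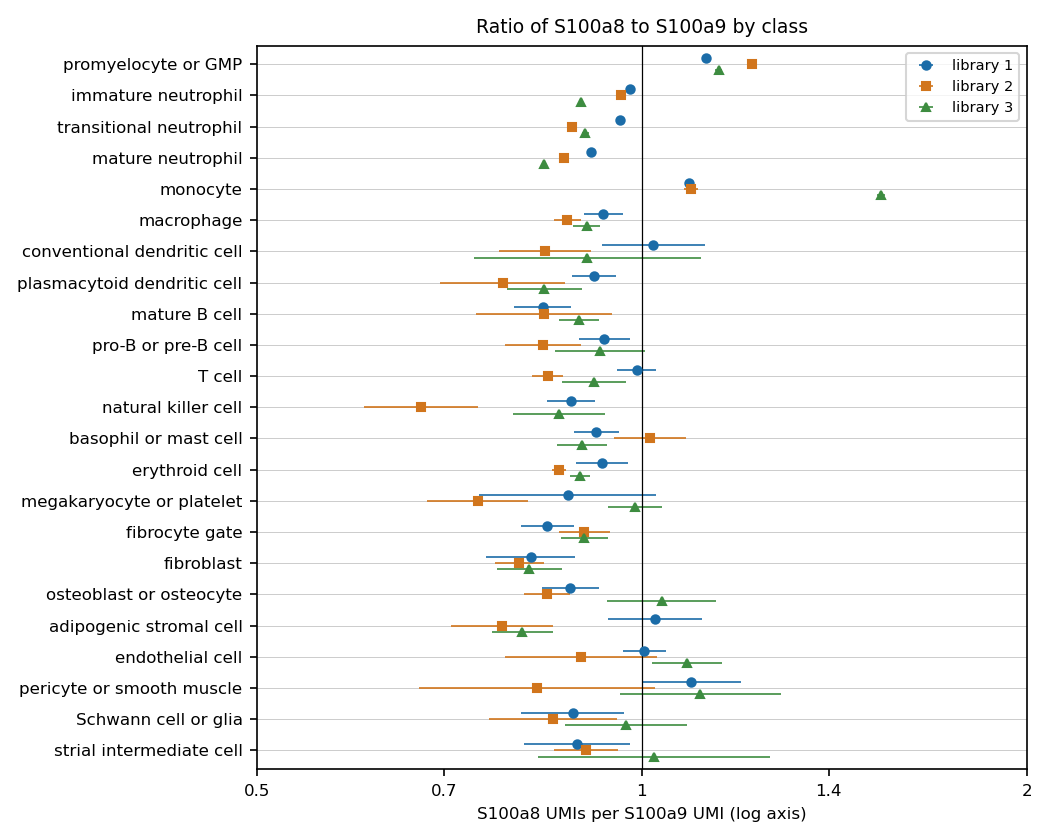
S100a8 UMIs per S100a9 UMI by class and library, with exact binomial 95% intervals on a log axis; the line marks equal counts. Promyelocytes and monocytes lie right of 1 in all 3 libraries, mature neutrophils between 0.839 and 0.912, and monocytes of library 3 farthest right at 1.54.

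S100a4, known as a marker of motile and mesenchymal cells, was highest in monocytes. Monocytes (markers such as Ccr2, F13a1 and Ly6c2; 2692, 1115 and 1486 cells) held 778 (767 to 789), 1634 (1611 to 1656) and 822 (811 to 832) CPM, and 91.7, 97.9 and 95.7% of them had a UMI. In mature neutrophils, at a median depth of 2531, 2826 and 3817 UMIs, 2.25, 4.99 and 5.38% of cells had a UMI. After thinning to 1000 UMIs the shares were 53.5, 76.4 and 54.7% of monocytes and 1.05, 1.99 and 1.75% of mature neutrophils. Library 2 was the highest, 2.1 (2.06 to 2.14) times library 1, and S100a4 was the only member with a ratio of at least 2 in monocytes, where 20.6% of all genes had one. Monocytes exceeded promyelocytes 36.4, 72.3 and 43.7 times, a step at which 9.45% of all genes were at least 2 times higher in each library.

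T cells came next for S100a4, at 687 (637 to 739), 725 (678 to 774) and 656 (614 to 699.9) CPM, a narrow range between libraries. Only 59.2, 48.9 and 49.7% of T cells had a UMI (36.9, 32.7 and 26.1% when thinned), and the 5% of T cells with the most UMIs held 36.2, 40.8 and 46.3% of them. The gene was thus concentrated in some T cells, while monocytes carried it evenly, the same fraction of cells holding 16.1, 12.7 and 14.1%. Natural killer cells had 140.5, 140.0 and 118 CPM, 0.205, 0.193 and 0.18 times the level of T cells; 1.69% of all genes were at least 2 times lower in each library. Mature B cells set against pro-B or pre-B cells gave no call for any member, with 3.68% of all genes higher and 3.91% lower. With classes taken from unsupervised clusters, S100a8 (0.0734, 0.137 and 0.0596), S100a9 (0.0807, 0.15 and 0.0563) and S100a6 (0.114, 0.358 and 0.096) were at least 2 times lower in mature B cells. In the gates, without cells over 5% in the pair, S100a8 was at 2670, 874 and 1765 CPM in pro-B or pre-B cells. Mature B cells then had 1675, 1081 and 2563 CPM. Which cells the cluster classes hold is not shown here, and the cause of the gap was not tested. Conventional dendritic cells (45, 17 and 12 cells) had 404, 539.9 and 127 CPM, overlapping fibroblasts at 136, 245 and 341 CPM.

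S100a10, the annexin A2 partner, shared monocytes as a leading class with S100a4. It stood at 889 (877 to 901), 1080.2 (1062 to 1099) and 1140.1 (1128 to 1153) CPM in monocytes and 813 (739.9 to 891), 1247 (1123 to 1379.5) and 866 (791 to 947) CPM in natural killer cells, whose ranges over libraries overlap. T cells followed at 703, 758 and 791 CPM and fibroblasts at 323, 599.6 and 652 CPM. A UMI was found in 94.8, 94.8 and 98.5% of monocytes, 93.4, 95.6 and 95.1% of natural killer cells and 85.7, 88.3 and 90.7% of T cells, against 4.14, 5.14 and 10.9% of mature neutrophils. Thinned shares were 54.4, 55.9 and 67% in monocytes and 1.56, 1.62 and 3.02% in mature neutrophils. Monocytes exceeded promyelocytes 13.5, 15.4 and 7.29 times in S100a10 and 6.95, 9.2 and 8.78 times in S100a6. S100a8 (0.306, 0.194 and 0.427) and S100a9 (0.315, 0.217 and 0.319) were lower in monocytes than in promyelocytes, as were 6.03% of all genes; both calls were lost with classes taken from unsupervised clusters. Of the compared classes, library 3 was the highest in 12 of 20 for S100a10.

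Macrophages (markers such as C1qa, C1qb and Mrc1; 251, 281 and 459 cells) were lower in 4 members. Against monocytes, S100a4 was at 0.0824, 0.056 and 0.0691 of the level, S100a10 at 0.0822, 0.0666 and 0.0725, S100a6 at 0.336, 0.19 and 0.16 and S100a11 at 0.443, 0.31 and 0.212. These 4 were at least 2 times lower in each library, as were 5.9% of all genes. Gates with 1 more marker left S100a11 at 0.501 in library 1, just outside the 2-fold limit, and classes taken from clusters lost the calls of S100a6 and S100a11. The macrophage levels themselves were 64.1, 91.5 and 56.8 CPM for S100a4, 605, 513 and 254 CPM for S100a6 and 73.1, 72 and 82.6 CPM for S100a10. Mature neutrophils set against monocytes showed the division of the family: S100a8, S100a9, S100a6 (7.24, 4.6 and 6.96 times) and S100a11 (8.08, 6.57 and 7.48 times) were higher in each library, as were 8.14% of all genes. S100a4 (0.0176, 0.0169 and 0.0172) and S100a10 (0.0191, 0.0166 and 0.0253) were lower, as were 37.2% of all genes.

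S100b, the glial member, was highest in classes resident in the cochlea. Schwann cells and satellite glia (markers such as Prx, Mag and Ncmap; 73, 28 and 76 cells) had 1019.7 (886 to 1168), 1490.3 (1307 to 1692) and 523 (451 to 603) CPM, with a UMI in 72.6, 89.3 and 69.7% of cells and 50.7, 73.1 and 46.7% when thinned. Strial intermediate cells, the pigment cells of the stria vascularis, had 901 (696 to 1149), 1861 (1704 to 2029) and 712 (564 to 887) CPM in 11, 26 and 16 cells, with a UMI in 72.7, 96.2 and 93.8%. The fibrocyte gate (106, 142 and 289 cells) is the class of fibrocytes or strial basal cells, which were gated together. It had 770.2 (704 to 841), 1719 (1649 to 1792) and 1059 (1011 to 1108) CPM, and the ranges of these 3 classes over libraries overlap. Fibroblasts were lower, at 254, 219.6 and 135 CPM. In T cells, at a median depth of 3969, 4388 and 5919 UMIs, 1.53, 0.897 and 1.24% of cells had a UMI, which is taken as background, against a median depth of 2186, 2922 and 3663 UMIs in the glial class.

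Within the fibrocyte gate S100b was far from even. Its median cell had none, and the 5% of cells with the most held 44.7, 66.8 and 89.9% of its UMIs. The gate accepts 2 of 5 markers (Coch, Otor, Otos, Cldn11, Gjb2), so it mixes kinds of cell. Fibrocytes and strial basal cells were not told apart in it. Cells with Otos on, the otospiralin gene of spiral ligament fibrocytes, numbered only 6, 17 and 16, and held 2929.9 (2394 to 3550.1), 10547 (10059 to 11051) and 15226 (14491 to 15989) CPM of S100b, with a UMI in 83.3, 100 and 100% of them. The 100, 125 and 273 cells with Otos off held 646 (584 to 712), 413 (376 to 452) and 139 (121 to 158) CPM. Cells with Otor on, which encodes otoraplin, were lower in S100b, at 459, 165 and 81.1 CPM, against 882, 2617 and 4916 CPM with Otor off. Cells with Gjb2 on, which encodes connexin 26, had 1036, 2832 and 4535 CPM, against 162, 326 and 398 CPM with Gjb2 off.

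The order of the libraries depended on this split. Over the whole gate library 2 was the highest for S100b, in Otos-on cells library 3, and in Otos-off cells library 1. The share of Otor-on cells differed as well, with 39, 75 and 242 such cells among 106, 142 and 289. By unsupervised clusters, 88 cells of the gate in 1 cluster held 4038 S100b UMIs at 5372 CPM, and the 209 cells of the most frequent cluster held 275 at 221 CPM. S100a6 and S100a10 in the gate were highest in library 1 and lowest in library 3, at 778, 513 and 121 CPM and 394, 272 and 133 CPM. S100a6 kept library 3 as the lowest in both Otor-on cells, at 290.3, 270.3 and 111 CPM, and Otor-off cells, at 954, 654 and 160.0 CPM. Fibroblasts had S100a4 at 2.76, 16.6 and 32.8 times the fibrocyte gate (4.14% of all genes at least 2 times higher) and S100b at 0.33, 0.128 and 0.127 (2.19% at least 2 times lower). The S100b direction turned over when fibrocytes were taken from unsupervised clusters named by the same markers. Those fibrocytes held 0, 11.2 and 33.8 CPM of S100b. They are another set of cells than the gate, which spans several clusters. Of the gate, 184 cells (9, 30 and 145 by library) lay in a cluster at 33.9 CPM of S100b. The turn in direction thus goes with a change of the cells compared.

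**Figure D5:**
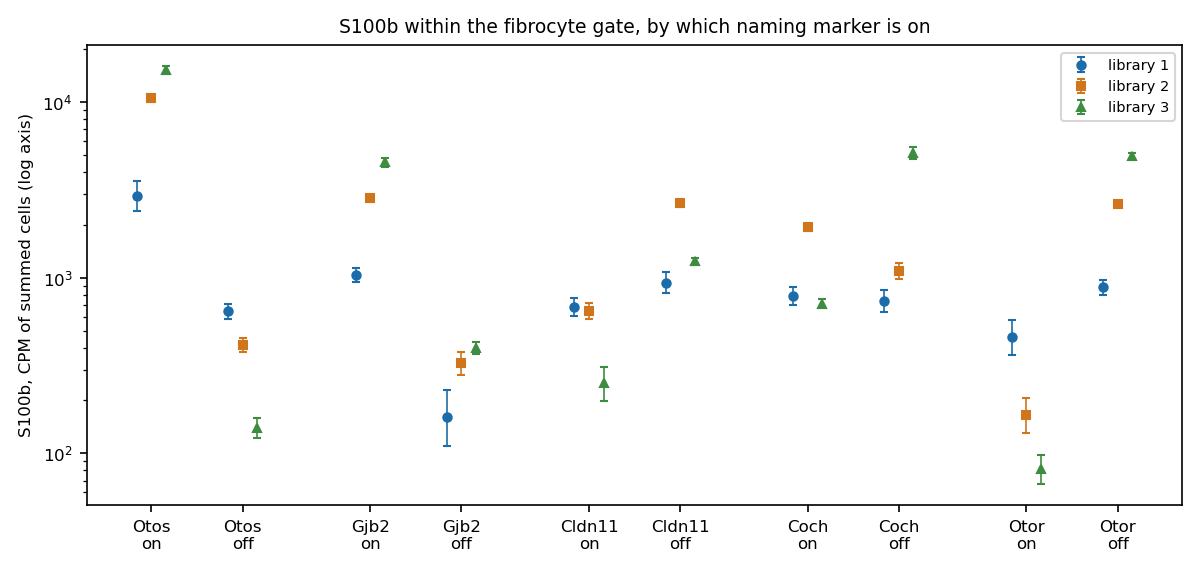
S100b in cells of the fibrocyte gate (CPM of summed cells, log axis, exact Poisson 95% intervals), split by whether each of the 5 naming markers is on or off in a cell. Otos-on cells reach 2930 to 15226 CPM and Otor-on cells 81.1 to 459 CPM.

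Among the described non-blood classes, each of at least 50 cells, S100a6 was highest in Schwann cells and satellite glia, at 2176, 1659 and 1507 CPM. Fibroblasts had 1253, 1576 and 1159 CPM of S100a6 and endothelial cells 661, 278 and 235 CPM. Among the described classes outside granulocytes, S100a11 was highest in adipogenic stromal cells (markers such as Cxcl12, Lepr and Adipoq; 64, 37 and 70 cells), at 844, 1246 and 981 CPM, overlapping promyelocytes, monocytes at 715, 1207 and 838 CPM and fibroblasts at 679, 1049.8 and 735 CPM.

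Between libraries, 59 of 132 tested pairs of member and class (44.7%) had a ratio of at least 2 between the highest and the lowest library, termed called here. The background over all genes and the same 20 classes was 27.2%. Of the 59 pairs, 24 were S100a8 or S100a9 outside granulocytes, 12 S100a4 and 9 S100b. By member, S100a8 and S100a9 were called in 12 of 20 classes each, S100a4 in 12 of 20, S100b in 9 of 12, S100a6 in 7 of 20, S100a10 in 5 of 20 and S100a11 in 2 of 20.

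By class sums, the called members in granulocytes were the scarce ones. In mature neutrophils S100a4 and S100b were called, 2 of 7 members, against 27.4% of all genes, and in immature neutrophils S100b, 1 of 7, against 24.5%. Transitional neutrophils had S100a10, 1 of 6, against 31.5%, and promyelocytes S100a10 and S100b, 2 of 7, against 28.9%. By the median cell, S100a8 and S100a9 of promyelocytes had ratios of 2.53 and 2.88, with library 1 the highest and library 3 the lowest. In mature, immature and transitional neutrophils the ratios of the median cell ran from 1.18 to 1.52 for these genes. No share over all genes was taken for the median cell. The counts that follow are again by class sums. Monocytes had 1 of 7, against 20.6%, and macrophages 4 of 7, against 20.6%. Among lymphoid cells the count was 5 of 7 in mature B cells against 28.1%, 3 of 6 in pro-B or pre-B cells against 25.1%, 2 of 6 in T cells against 23.1% and 3 of 6 in natural killer cells against 29.3%. It was 3 of 6 in plasmacytoid dendritic cells against 30.4%, 2 of 6 in basophils or mast cells against 21.1% and 2 of 7 in erythroid cells against 35.2%. The highest counts were 6 of 7 in the fibrocyte gate against 26.4% and 6 of 7 in Schwann cells and satellite glia against 42.6%. Fibroblasts had 4 of 7 against 27%, endothelial cells 4 of 6 against 27.9%, pericytes 4 of 6 against 32.6%, osteoblasts 2 of 7 against 25% and adipogenic stromal cells 2 of 7 against 30%. The stromal, vascular and glial classes have few cells, and their background shares include the highest of the 20. S100a11 was highest in library 2 in 15 of 20 classes, with a median ratio of 1.55. In monocytes, S100a4, S100a6 and S100a11 were all highest in library 2, at ratios of 2.1, 1.69 and 1.69.

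Single cells decided some calls. In promyelocytes of library 2, 92.6% of 175 S100b UMIs came from 1 cell, and in immature neutrophils of library 2 85.3% of 211. The ratios of 18.3 and 8.86 in these classes rest on those cells. In mature B cells of library 1, 1 cell held 64% of 25 S100a4 UMIs, and in pericytes 1 cell held 72.7 and 63.6% in libraries 1 and 2.

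Genes with the most similar pattern were ranked by Pearson r of log2(CPM + 10) over the 60 sums of 20 classes and 3 libraries, among 13296 genes; sums of a library share its depth and its free RNA, so r is a description. S100a8 was most like S100a9 (0.996), Wfdc21 (0.984) and Lcn2 (0.956), and S100a9 most like S100a8 (0.996), Wfdc21 (0.98) and Lcn2 (0.949); Wfdc21 and Lcn2 are secreted products of neutrophils, and Lcn2 also named the immature gate. S100a6 was most like A530064D06Rik (0.826), Ceacam10 (0.818) and Il1f9 (0.816), and S100a11 most like Dhrs7 (0.881), Anxa11 (0.868) and Slc22a15 (0.868), with Anxa11 an annexin. S100a4 was most like Vcan (0.657), Ccr2 (0.638) and Capn2 (0.616), of which Ccr2, the monocyte chemokine receptor, named the monocyte gate. S100a10 was most like Anxa6 (0.826), Nt5c (0.802) and Gm9844 (0.77). S100b was most like Arnt2 (0.942), Nrbp2 (0.932) and Itgb8 (0.92). Among members, r was 0.774 for S100a6 and S100a11, 0.579 for S100a4 and S100a10, and -0.566 for S100a8 and S100a10.

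Other S100 genes had other leading classes among the 23 described. S100a1, a regulator of calcium handling in muscle and neurons, was highest in strial intermediate cells at 1012, 1988 and 1271 CPM, followed by the fibrocyte gate at 601, 755 and 355 CPM. S100a13, whose product takes part in the release of FGF1, and S100a16 were highest in endothelial cells, at 274, 376 and 366 CPM and 301, 251 and 216 CPM. S100a1 and S100a13 overlap on the chromosome, so their counts are uncertain. S100a3 was at most 9.76 CPM. Between libraries 9 of 53 pairs of these genes and classes were called, 17%, below the 27.2% over all genes.

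Of the annexins and other partners inside the cell, 23 of 139 pairs were called, 16.5%. Anxa1, an anti-inflammatory annexin and partner of S100A11, was highest in immature neutrophils at 2569, 2446 and 3453 CPM and lower in mature ones at 970.1, 844 and 1362 CPM, the reverse of S100a11. Anxa2, the partner of S100A10, was at 983, 877 and 1029 CPM in mature neutrophils, where S100a10 was below 30 CPM, and at 576, 641 and 603 CPM in monocytes. Myh9, a non-muscle myosin bound by S100A4, peaked in transitional neutrophils at 887, 868 and 770.2 CPM, and Ahnak, a large scaffold bound by S100A10 with annexin A2, in Schwann cells and satellite glia at 1351, 761 and 1228 CPM.

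Of the receptors for released S100 proteins, 27 of 70 pairs were called between libraries, 38.6%. Bsg, which encodes basigin, was highest in endothelial cells at 994, 829 and 944 CPM, and Cd14, the co-receptor of TLR4, in macrophages at 324, 343 and 190.0 CPM. Tlr4 itself was highest in macrophages at 42.7, 34.3 and 49.8 CPM. Cd36, a scavenger receptor for fatty acids, and Ly96 were highest in endothelial cells and passed the 2-fold ratio there, Cd36 at 168, 444 and 145 CPM with a ratio of 3.05 (2.28 to 4.09), and Ly96, which encodes MD-2, at 64.5, 130.0 and 103 CPM with a ratio of 2.01 (1.19 to 3.38). The share of all genes that passed it in that class was 27.9%.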

How the data were processed

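The deposited table holds raw UMI counts per gene and barcode, written by Cell Ranger 7.1.0 per the file headers, on GRCm39 per the submitters' processing notes, from 10x 3′ libraries per the labels' protocols; how cells were called and libraries joined is not stated in those sources. Members, gene lists and markers were chosen with earlier results of these data known. Of the naming markers, 1 is not reported here.

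A marker was on in a cell at 20% or more of the mean of the top 1% of cells. A class needed at least 3 markers and 50% of its list (fibrocytes 2 of 5); cells passing both neutrophil gates were called transitional. These scoring rules were set after cells had been seen, and comparisons between classes, per-cell medians, the cells over 5% and the split of the fibrocyte gate were added after values were seen. Cells passing other gates together were left out; scrublet calls (scanpy 1.11.5, expected rate 6%) were left in and removed in an alternative. Counts of a class were summed per library. A ratio between libraries was taken for genes with at least 20 summed UMIs, with 0 set to 3 counts. Named genes were all members, the 3 most similar genes each, and up to 4 genes of each other list with the highest CPM in any class, plus those at 2-fold between libraries in their highest class; Tlr4 and values in further classes were added after values were seen. The 95% intervals are exact Poisson, Clopper-Pearson or binomial. Libraries had 131084591, 92188324 and 144942023 UMIs in kept cells. The range and similarity steps were tested on simulated data. TMM factors came from edgeR 4.0.16 under R 4.3.3; clusters were made with python-igraph 0.11.9 (resolution 2). Other software was matplotlib 3.10.9, pandas 2.3.3, scipy 1.17.1 and numpy 2.4.6 on Python 3.11.15. Other scalings, filters, gates, thresholds and left-out libraries were tried as alternatives.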

Additional observations from a re-analysis of the deposited data

How the results depend on the processing

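No paired analysis was possible because no suffix is tied to a sample and each group has 1 library. Other scalings, cell filters, stricter gates and clusters kept 6 or 7 of 7 members in their highest class; TMM scaling moved S100a8 between overlapping neutrophil classes, and removing doublets, a 10% mitochondrial limit or clusters moved S100b. The 59 of 132 pairs called between libraries became 60 to 67 under other scalings, cells or 1 summed UMI, 55 with at least 50 summed UMIs, 92 at 1.5-fold and 26 at 3-fold. Stricter gates left 19 classes to compare, and the limit on summed UMIs and the cells taken set which pairs are tested. Counts under those settings therefore need not be out of 132. With library 1, 2 or 3 left out, a comparison of 2 libraries in place of 3, chosen after seeing the data, they were 27, 32 and 30. With another fold or a library left out all genes moved too, to 58.1% at 1.5-fold, 9.51% at 3-fold and 10.2 to 12.6% with 2 libraries. For the other settings the share over all genes is not given here, so their counts have no background beside them. Calprotectin outside granulocytes fell to 5 and 8 of 32 pairs from 24 by the median cell and without rich cells, both chosen after seeing the data. The second leaves cells out by the measured genes themselves, and neither has a share over all genes beside it. Pairs of member and class with a UMI in at least 50% of cells in every library were 60 of 161 after thinning, against 91 before. Of 21 most similar genes, 11 remained with a pseudocount of 1 and 15 with 100; none of the 3 named for S100b remained at 1. The S100a8 to S100a9 ratio kept its order over promyelocytes, immature and mature neutrophils in 3 of 3 libraries with doublets removed, stricter gates or a 10% mitochondrial limit. Transitional neutrophils were not part of that check. Between classes, 25 to 28 calls were made, against 26. With clusters, 5 of these calls were lost, 5 gained and 1 reversed, and natural killer cells against T cells gave no value. Classes taken from clusters hold other cells than the gates, so these changes are not within fixed sets of cells. The reversed call, S100b in fibroblasts over fibrocytes, became at least 9.34 in library 1, whose cluster fibrocytes had no S100b UMI. It was 29.7 and 5.75 in libraries 2 and 3. Gained were S100a6 (11.9, 11.4 and 7.74) and S100a10 (10.1, 11.7 and 4.37), higher in fibroblasts than fibrocytes, and S100a8, S100a9 and S100a6, lower in mature B cells than in pro-B or pre-B cells. S100a4 lost its lower call in transitional neutrophils with doublets removed, stricter gates or clusters, and with clusters the lower calls of S100a8 and S100a9 in monocytes and of S100a6 and S100a11 in macrophages were lost; the cause was not tested. S100b in the fibrocyte gate of library 3 was 436 CPM at 10% mitochondrial UMIs, stricter gates gave 1311, 5119 and 2515 CPM, and clusters gave 0, 11.2 and 33.8 CPM. Depth limits S100b in blood classes and S100a4 in granulocytes, where most cells had no UMI.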

Other observations

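Sensory and epithelial cells were too few for the classes described. In 22 supporting cells (9, 8 and 5 by library; Sox2, Otoa and Otog among their markers) S100a1 stood at 2791, 12642 and 37398 CPM, above every described class in each library. S100a1 had a UMI in 21 of the 22 cells, and the cells of library 3 ranged from 30794 to 44026 CPM. S100a13, which overlaps S100a1 on the chromosome, was at 383, 2050.5 and 8039 CPM in the same cells. S100b was at 229.9, 357 and 55.9 CPM there. In 7 hair cells S100a1 was at 1443 CPM (1116 to 1836, 66 UMIs), and S100b, S100a4, S100a6 and S100a10 had no UMI. In 12 middle ear epithelial cells S100a6 stood at 3109 CPM (2927 to 3299, 1087 UMIs) and S100a11 at 1822 CPM (1683 to 1969, 637 UMIs). In 5 spiral ganglion neurons S100b was at 629 CPM (507 to 770.0, 93 UMIs). S100a8 was at 1049.5 CPM (774 to 1392, 48 UMIs) in hair cells. In 8 Reissner membrane cells (5, 2 and 1 by library) it was at 21681 CPM (20678 to 22719, 1756 UMIs). It was at 9527 CPM in 6 strial marginal cells and 4684 CPM in the 5 spiral ganglion neurons. Supporting cells held 996 CPM and middle ear epithelial cells 875 CPM. Each value is a sum over few cells, and the share of single cells in it is not shown here.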
